A study of Mus musculus with 4 samples.

Results

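The Hoxa and Hoxd clusters hold the homeobox genes Hoxa9, Hoxa10, Hoxa11, Hoxa13, Hoxd9, Hoxd10, Hoxd11 and Hoxd13, and the binding of estrogen receptor alpha (ESR1) was mapped in and around them in mouse liver and uterus. A peak, meaning a region called as enriched for ESR1-bound DNA, was assigned to a cluster if its summit lay inside the cluster span or within 500 kb of it. On the mm9 build the spans were chr6:52100000-52220000 for Hoxa and chr2:74500000-74610000 for Hoxd. In uterus 56 of 24836 peaks met this rule, 25 at Hoxa and 31 at Hoxd. In liver 4 of 6932 peaks met it, all of them at Hoxa. The study profiled flash-frozen whole liver and uterus of female C57BL/6 mice aged 8 weeks by chromatin immunoprecipitation and sequencing (ChIP-seq), with an input control for each tissue. Each tissue was represented by 1 ESR1 library, so differences between liver and uterus have no replicate check and none was tested. The labels give neither the stage of the estrous cycle nor any hormone treatment, and they do not say whether a library came from 1 animal or was pooled. Whole tissue mixes cell types, so binding in few cells and weak binding in many cannot be told apart.

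ESR1 is a nuclear receptor that is activated by estrogens and binds DNA at palindromic response elements or through other factors. Hox genes encode transcription factors that give position to cells along the body axis, and their order on the chromosome follows the order of their expression along that axis. The group 9 to 13 genes act at the posterior end, where Hoxa9, Hoxa10, Hoxa11 and Hoxa13 pattern the oviduct, the uterus, the lower uterus with the cervix, and the vagina. Hoxa10 and Hoxa11 are also needed in the adult uterus for implantation, and Hoxa10 is a known target of ovarian steroids there. The Hoxd genes are best known for patterning limbs, digits and the urogenital tract, and they are controlled by long-range elements on both sides of the cluster.

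All 8 genes were found in the RefSeq gene table, where the order of genes was read. With rising coordinates Hoxa9, Hoxa10, Hoxa11 and Hoxa13 follow each other at the high-coordinate end of the Hoxa cluster, ahead of Evx1, Hibadh, Tax1bp1 and Jazf1, with Skap2 and Snx10 beyond the low-coordinate end. The Hoxd cluster runs the other way, from Evx2 and Hoxd13 to Hoxd1 and Mtx2, with Lnpk beyond Evx2. The table uses the GRCm38 build and the peaks use mm9, so only this order was carried over, and no peak was given to a single gene or to a distance from its start. Peak positions are given from the edges of the spans above.

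The promoters of these genes that hold the letters of one arm of an estrogen response element are shown because those letters are what the receptor can contact directly. They are RefSeq sequences of the 250 bases before the start on GRCm38, and they were read apart from the peaks. The 8 genes had 10 promoters in the table. The arm GGTCA, or TGACC on the other strand, lay in 4 of the 10, against 35.2% of 32851 promoters of all genes. The full element GGTCANNNTGACC lay in 0 of the 10 and in 0.0639% of all promoters. A GC box, GGGCGG or CCGCCC, a site of SP1 through which ESR1 can be tethered, lay in 6 of the 10 and in 32.7% of all. With only 10 promoters, and none matched for base composition, the differences between these shares were not tested. Capitals mark GGTCA and TGACC, and each line runs from 5' to 3'.
Hoxa9, chr6:52227371-52227620, minus strand: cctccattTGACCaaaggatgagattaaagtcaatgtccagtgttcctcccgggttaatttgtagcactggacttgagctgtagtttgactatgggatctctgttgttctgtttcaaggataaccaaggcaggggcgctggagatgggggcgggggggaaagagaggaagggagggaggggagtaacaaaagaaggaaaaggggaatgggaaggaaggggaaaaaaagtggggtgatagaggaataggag
Hoxa11, chr6:52245811-52246060, minus strand: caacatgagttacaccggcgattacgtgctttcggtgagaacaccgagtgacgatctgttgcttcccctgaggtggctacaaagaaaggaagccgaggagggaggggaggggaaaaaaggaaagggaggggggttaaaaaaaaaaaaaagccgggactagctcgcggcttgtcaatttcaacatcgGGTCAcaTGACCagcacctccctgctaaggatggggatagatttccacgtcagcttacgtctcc
Hoxd10, chr2:74691641-74691890, plus strand: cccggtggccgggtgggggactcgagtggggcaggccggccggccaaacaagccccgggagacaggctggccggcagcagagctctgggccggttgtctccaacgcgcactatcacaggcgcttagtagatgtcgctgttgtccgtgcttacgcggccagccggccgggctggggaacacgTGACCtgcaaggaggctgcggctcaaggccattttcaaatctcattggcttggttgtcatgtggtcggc
Hoxd13, chr2:74667975-74668224, plus strand: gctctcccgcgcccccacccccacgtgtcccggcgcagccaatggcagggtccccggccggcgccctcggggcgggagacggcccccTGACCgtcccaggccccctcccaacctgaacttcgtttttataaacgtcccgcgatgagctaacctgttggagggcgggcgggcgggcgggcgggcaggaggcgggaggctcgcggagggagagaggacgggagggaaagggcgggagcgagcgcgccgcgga
The Hoxa11 promoter held both orientations of the arm with 2 bases between them, 1 base fewer than in the full element. That arrangement, GGTCANNTGACC, was found in 24 of the 32851 promoters, or 0.0731%. It was counted because the Hoxa11 promoter held it, so its share among all promoters is not a test. The full element was about as rare, at 0.0639%. The motif counts describe letters in these windows and do not show a bound site.

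The first comparison asked how many ESR1 sites each tissue had at the clusters. Uterus had 22.3 peaks per Mb over the Hoxa locus, meaning span and flanks together (95% exact Poisson interval 14.5 to 33.0), and 27.9 per Mb over the Hoxd locus (19.0 to 39.6). The whole uterus list had 9.72 per Mb. Liver had 3.57 peaks per Mb at Hoxa (0.973 to 9.14) against 2.71 in its whole list, and none at Hoxd. Uterus peaks thus outnumbered liver peaks 14 to 1 at the clusters together and 3.58 to 1 in the whole lists. The pooled ratio joins 25 uterus and 4 liver peaks at Hoxa with 31 and 0 at Hoxd. The intervals cover counting error only and treat peaks as independent, although peaks lie in runs. No limit is put on a count of 0, because the lists hold only peaks past a p cutoff of 1e-10.

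**Figure D1:**
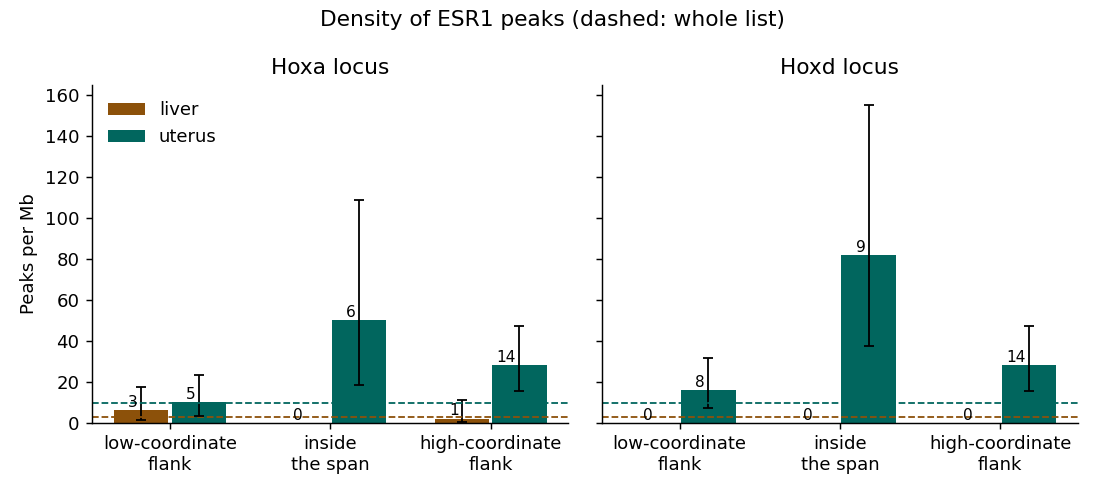
Peaks per Mb in the low-coordinate flank, inside the span and in the high-coordinate flank of each locus, in liver (brown) and uterus (green); bars are densities, numbers are peak counts, error bars are 95% exact Poisson intervals for counts above 0, and dashed lines are the whole lists. The uterus bars inside the spans stand at 50 and 81.8 per Mb, and liver has no peak inside either span.

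With all deposited peaks, the uterus density within each locus was highest inside the cluster. The Hoxa span held 6 uterus peaks, or 50 per Mb (18.4 to 109), and its flanks held 19, or 19.0 per Mb (11.4 to 29.7). The Hoxd span held 9, or 81.8 per Mb (37.4 to 155), and its flanks 22, or 22 per Mb (13.8 to 33.3). Inside over flanks, the ratio was 2.63 at Hoxa and 3.72 at Hoxd. The flanks were unequal at both loci. At Hoxa, 5 peaks lay on the low-coordinate side and 14 on the Hoxa13 side. At Hoxd, 8 lay on the Hoxd13 side and 14 on the Hoxd1 side. The list lengths bear on these counts. With the uterus list shortened to its 6932 peaks of best MACS score (10 times the −log10 of the p-value), the Hoxa locus held 7 uterus peaks, 1 of them inside, and the Hoxd locus 12, with 4 inside. The ratio of inside to flanks was then 1.39 at Hoxa and 4.55 at Hoxd. In the shortened list the Hoxa span, at 8.33 per Mb, was less dense than its Hoxa13-side flank, at 10 per Mb from 5 peaks, so the order of these regions turned at Hoxa. It did not turn at Hoxd, with 36.4 per Mb inside and 12 per Mb in the denser flank.

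The loci were read against all windows of their own width along the chromosomes. Windows of 1120 kb had a median of 9 uterus peaks, and 9.60% of the 2272 windows held 25 or more. For liver, 30.5% of these windows held 4 or more peaks, so the liver count at Hoxa was an ordinary one. Windows of 1110 kb held 31 or more uterus peaks in 4.62% of 2292 cases, and 40.0% of them held no liver peak. A lack of liver peaks was less frequent among windows as rich in uterus peaks as Hoxd than among all of them. Of the 106 windows with at least 31 uterus peaks, 8 had no liver peak, and the median of the 106 was 7 liver peaks. Of the 218 windows at least as rich in uterus peaks as Hoxa, 92 had 4 liver peaks or fewer. Windows the size of the clusters themselves held 6 or more uterus peaks in 3.99% of 21285 cases at the Hoxa width and 9 or more in 0.840% of 23219 cases at the Hoxd width. The absence of liver peaks inside the spans was common at that scale, since 82.7% and 83.7% of all such windows had none. It was less common among windows at least as rich in uterus peaks as the spans. Of these, 476 of 849 at the Hoxa width and 101 of 195 at the Hoxd width had no liver peak. The loci were proposed with earlier results of these data known, so these shares describe where they stand and are not a test.

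**Figure D2:**
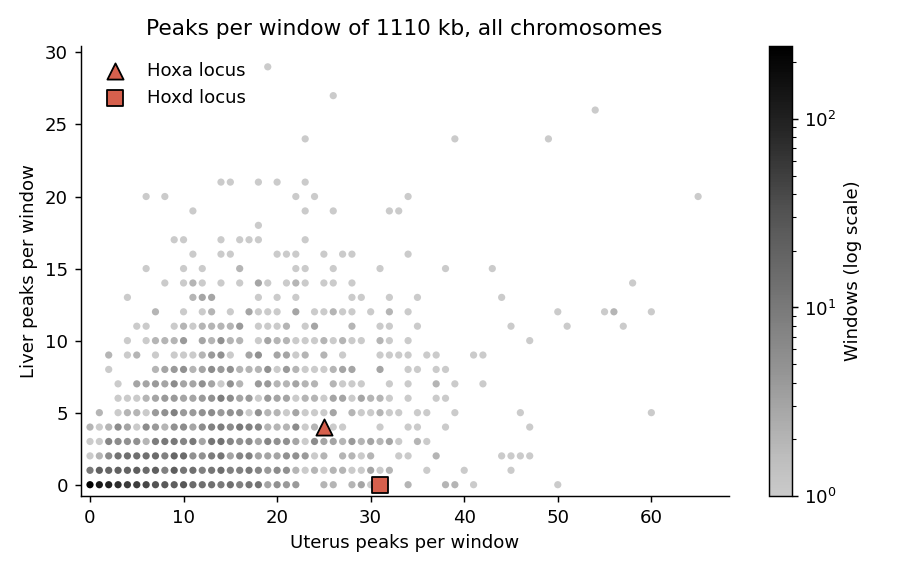
Uterus peaks (x axis) and liver peaks (y axis) in each non-overlapping window of 1110 kb; darker points stand for more windows, on a log scale, and the Hoxa locus, 1120 kb wide, and the Hoxd locus are marked. The Hoxd locus lies on the bottom edge with 31 uterus peaks and no liver peak, and the Hoxa locus at 25 and 4.

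No called site was shared at Hoxa, and none could be at Hoxd, where liver had no peak. The 31 uterus peaks at Hoxd are thus outside this comparison. At Hoxa none of the 25 uterus and none of the 4 liver peaks overlapped a peak of the other tissue by 1 bp. In the whole lists 6.58% of uterus and 23.7% of liver peaks did. With only 4 liver peaks, a count of 0 cannot show whether sharing at Hoxa was below the list share. The count stayed at 0 with summits within 200 bp or with gaps of up to 1000 bp allowed. The closest liver and uterus summits there were 7.85 kb apart, so these settings could not change it. The nearest liver summit was 339 to 362 kb from the uterus peaks inside Hoxa and 883 to 953 kb from those inside Hoxd. Around the Hoxd span the liver list had an empty stretch of 2418 kb, from a peak on the Hoxd13 side at 1447 kb from the span to one on the Hoxd1 side at 861 kb. Around the Hoxa span the corresponding stretch was 864 kb.

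The 6 uterus peaks inside the Hoxa span lay together in 23.6 kb of its 120 kb, between 72.4 and 96.0 kb from the low-coordinate edge. The widest, chr6:52171583-52172672, held 122 tags at an 11.3-fold enrichment over control. The next, chr6:52176042-52176750, held 62 tags at 12.4-fold. The highest enrichment inside the cluster, 16.5-fold with 55 tags, belonged to chr6:52183362-52183954. A neighbour 673 bp beyond it, chr6:52184628-52185374, held 52 tags at 9.19-fold, and the summits of this close pair were 1.27 kb apart. Then followed chr6:52190286-52190886 with 41 tags at 7.45-fold. The last, chr6:52195643-52196106, held 35 tags at 9-fold. All 6 were thus in the 60 kb of the span toward Hoxa13, the end of the cluster where Hoxa9, Hoxa10 and Hoxa11 precede it in gene order. The low-coordinate 60 kb had none, and the stretch without a uterus peak reached 398 kb, from the first inside summit down to the nearest peak of the low-coordinate flank.

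These were peaks of modest enrichment. Only 1 of the 6 lay above the median fold enrichment of the uterus list, 14.7, and their median was 10.2, at percentile 21.5 of the list. By tags their median was 53.5 against 55 in the list, with 2 of the 6 above 55 and 1 equal to it. They were wider than most, with the median width of 655 bp at percentile 63.7. Fold enrichment and tags are the authors' values for each peak and depend on the depth of that library and its control, so ranks were taken only among peaks of the same tissue.

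**Figure D3:**
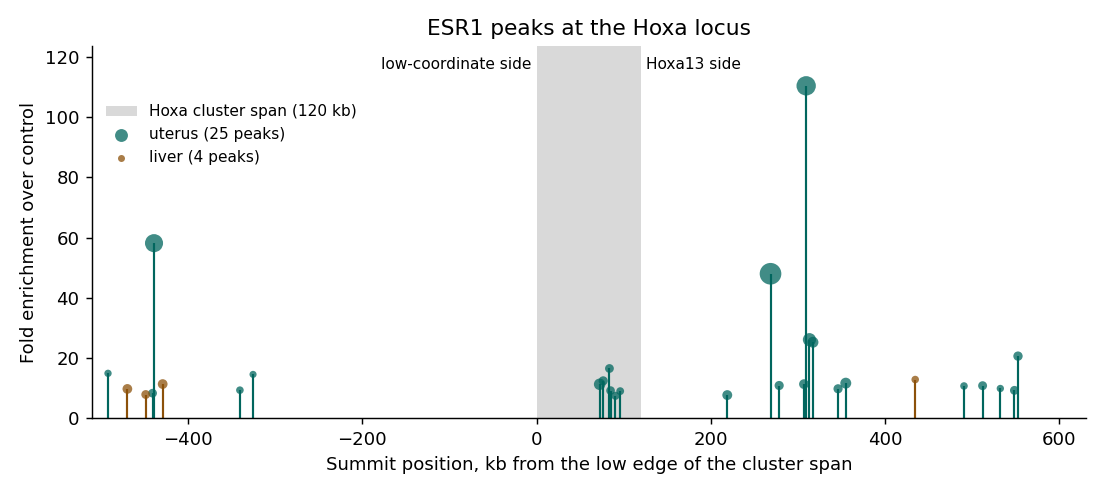
ESR1 peaks at the Hoxa locus, with summit position in kb from the low edge of the span (x axis) against fold enrichment over control (y axis); circle area grows with tags, and the grey band is the span. The 6 uterus peaks inside the span stay at or below 16.5-fold, while the flanks reach 110-fold on the Hoxa13 side and 58.1-fold on the low-coordinate side.

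The strongest uterus sites of the Hoxa locus lay outside the cluster. On the Hoxa13 side, chr6:52408729-52409837 was enriched 110-fold with 420 tags, rank 76 of the 24836 uterus peaks by fold, with its summit 189 kb beyond the span. It was the centre of a run with chr6:52412612-52413777 (26.1-fold, 173 tags), chr6:52416908-52417621 (25.2-fold, 107 tags) and a weaker peak of 11.3-fold in front of it. Nearer to the cluster, chr6:52367153-52369705 held 535 tags, rank 100 by tags, at 48.0-fold, and was 2553 bp wide. The peak closest to the Hoxa13 edge, chr6:52318468-52319487, was weak, at 7.69-fold with 80 tags. Of the 8 other peaks of that flank, 7 were enriched 9.26- to 11.65-fold, below the list median, and chr6:52652183-52652718 was enriched 20.6-fold. On the low-coordinate side a single peak stood out, chr6:51660209-51661395, with 361 tags at 58.1-fold. The peak nearest that edge, chr6:51774421-51774833, held 22 tags at 14.6-fold.

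The liver peaks of the Hoxa locus were all in the flanks, between percentiles 14.6 and 63.8 of the liver list by fold enrichment. On the low-coordinate side chr6:51630080-51630764 held 76 tags at 9.74-fold. Beside it chr6:51651198-51651848 held 56 tags at 7.88-fold, and chr6:51670487-51671283 held 77 tags at 11.4-fold. These peaks lay on both sides of the strong uterus site on that flank without touching it, at 7.85 to 22.2 kb from the nearest uterus summit. The only liver peak on the Hoxa13 side, chr6:52534433-52534762, held 30 tags at 12.9-fold and lay 56.0 kb from a uterus summit. The median fold enrichment of the whole liver list was 11.2, and 2 of the 4 lay above it.

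The 9 uterus peaks inside the Hoxd span were spread over 70.1 kb of its 110 kb, and most lay toward Hoxd13. The first, chr2:74517086-74518103, held 121 tags at 18.6-fold. The strongest, chr2:74534969-74535739, held 134 tags at 37.5-fold and was followed after 862 bp by chr2:74536602-74537376 with 62 tags at 9.13-fold. A tight run of 3 came next. It consisted of chr2:74541161-74541828 (25.5-fold, 92 tags), chr2:74542673-74543243 (22.8-fold, 62 tags) and chr2:74543716-74544255 (34.3-fold, 75 tags), the last summits 0.974 kb apart. A weak peak, chr2:74549099-74549591, held 31 tags at 10.6-fold. These 7 of the 9 lay in the 55 kb of the span toward Hoxd13, the end from which Hoxd11, Hoxd10 and Hoxd9 follow in gene order. The 55 kb toward Hoxd1 held chr2:74565864-74566310 (16.1-fold, 36 tags) and chr2:74587422-74588172 (15.5-fold, 75 tags). Counted over both clusters, 13 of 15 inside peaks lay on the group 13 side of the midpoint and 2 on the other side. This split was chosen after the positions were seen.

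Inside Hoxd the peaks ranked higher than inside Hoxa. Here 7 of 9 lay above the list median of fold enrichment, with a median of 18.6-fold at percentile 65.7, and 7 of 9 lay above the list median of tags. The difference in rank between the clusters was not tested, since the peaks of a cluster come from 1 library and are not replicates.

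**Figure D4:**
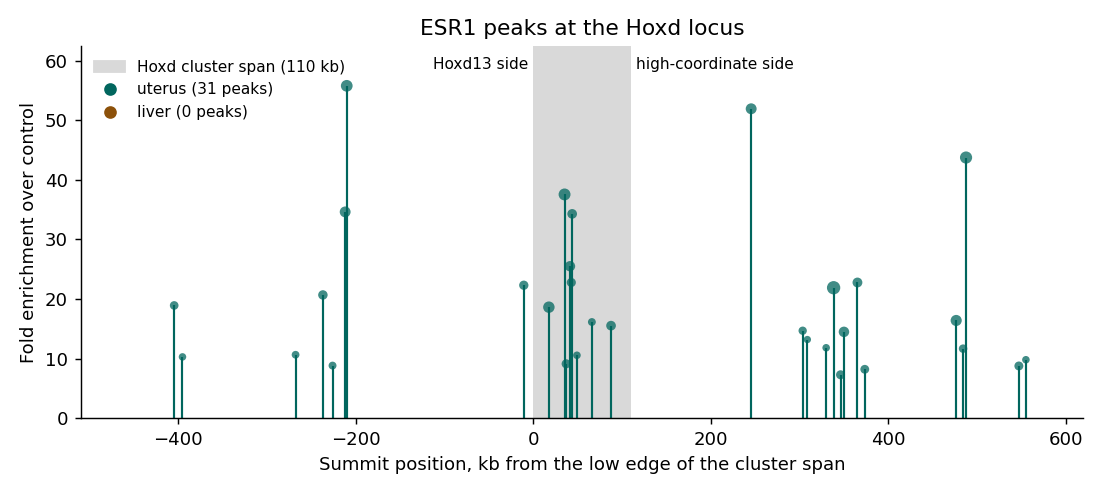
ESR1 peaks at the Hoxd locus, with axes and symbols as in the map of the Hoxa locus but a shorter y axis; liver has no peak here. The 9 peaks inside the span reach 37.5-fold, and single sites in the flanks reach 55.8-fold on the Hoxd13 side and 51.9-fold on the Hoxd1 side.

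The Hoxd flanks held separate groups of uterus peaks with long empty stretches between them. On the Hoxd13 side, the side of Evx2 and Lnpk, the strongest was chr2:74289562-74290080, with 129 tags at 55.8-fold, and 1120 bp before it lay chr2:74287796-74288441 with 105 tags at 34.6-fold. From there 199.5 kb between summits without a further peak led to chr2:74489084-74489697, at 22.3-fold with 66 tags, whose summit was 10.6 kb outside the span. On the Hoxd1 side, the side of Mtx2, the first peak after the cluster came at 158 kb from the last inside summit. This was chr2:74745367-74745960, a site of 51.9-fold with 106 tags, and the nearest other uterus summit was 58.1 kb away. A group of 8 peaks followed between 304 and 374 kb from the low edge of the span, with 7.29- to 22.8-fold enrichment and up to 178 tags. Further out, chr2:74987521-74988382 reached 43.7-fold with 142 tags.

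Across both loci, 41 of the 56 uterus peaks had another uterus summit within 10 kb, or 73.2%, against 47.5% of the whole list. Inside the spans this held for 12 of 15 and in the flanks for 29 of 41. The share is not independent of the density, since crowded regions have near neighbours by construction. All 6 peaks inside Hoxa and 6 of 9 inside Hoxd were among them.

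**Figure D5:**
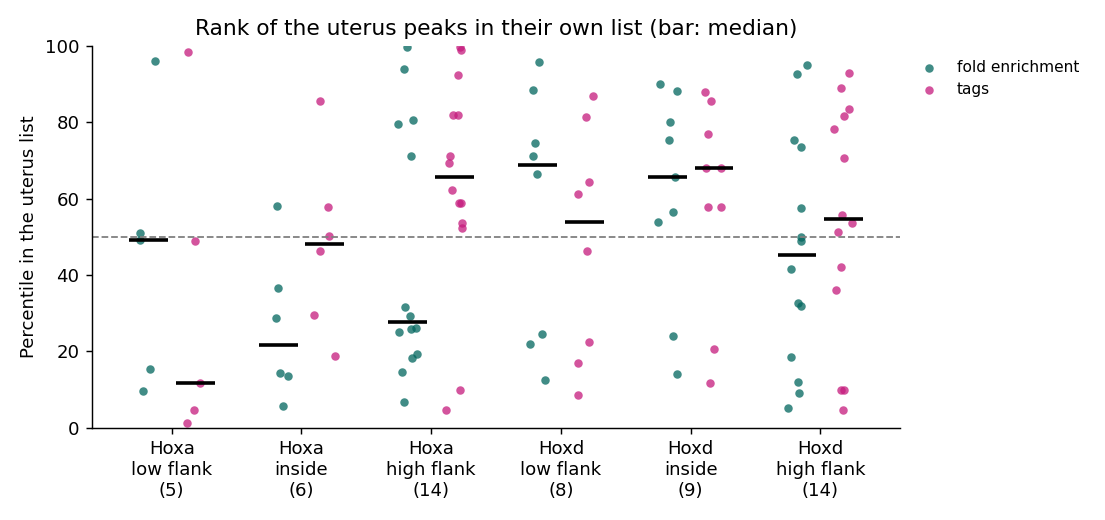
Percentile of each uterus peak in the whole uterus list by fold enrichment (green) and by tags (pink), for the flanks and the inside of each span; the number of peaks is in brackets, bars are medians, and the dashed line is the list median. The fold percentiles inside Hoxa have a median of 21.5, and those inside Hoxd of 65.7.

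In uterus the called peaks of the Hoxa locus held 2724 tags in all and those of Hoxd 2276, against 239 in the liver peaks at Hoxa. These sums depend on how much was called. The uterus peaks covered 19.7 kb at Hoxa and 20.5 kb at Hoxd, with 138 and 111 tags per kb. The liver peaks covered 2.46 kb with 97.0 tags per kb. The order of the loci in uterus differed by region. Inside the spans it was 87.3 tags per kb at Hoxa and 114 at Hoxd, and in the flanks 152 and 110. These values pool the tags of all peaks of a region, so peaks with many tags weigh most. The median percentile of single peaks did not change order. It was 35.2 at Hoxa and 66.3 at Hoxd inside the spans, and 48.9 and 50.2 in the flanks. By tags per kb the median uterus peak was at percentile 45.9 of its list at Hoxa and 57.0 at Hoxd. The median of the 4 liver peaks at Hoxa was at percentile 57.7 of the liver list. Depth was similar, with 20016495 unique tags in the liver library and 22298008 in uterus. The fewest tags in any called peak were 18 for liver and 16 for uterus.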

How the data were processed

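Peak lists of 1 liver and 1 uterus ESR1 library were used; the 2 input controls entered only through the authors' peak calling. Per the submitters' processing notes, peaks were called with MACS 1.3.7.1 on mm9, and per the file headers each library was called against 1 control tag set with 50 bp tags and a p cutoff of 1e-10. For the aligner, no name is given in the sources used here. Deposited tags are raw counts per peak. The deposited fold enrichment is a ratio to the local control background, the deposited MACS score is 10 times the negative log10 of a p-value, and false discovery rates were deposited in percent and not used.

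A summit was placed at start plus summit minus 1. Peaks were assigned by summit and called shared at an overlap of at least 1 bp. Percentiles give the share of the list with a lower value, with tied peaks split evenly. Windows were laid end to end from the first peak of each chromosome. All peaks by the rule were counted; named were those inside the spans, shared peaks, the 5 of highest fold enrichment per locus and tissue, the nearest to each edge, and single others picked after their values were seen. The loci, lists and alternatives were chosen with earlier results of these data known, and the promoter motif search was added after the files were seen. An mm9 genome and annotation were not used here. Overlap, window and distance counts were tested on simulated data and by direct enumeration, with 6 of 6 answers recovered. Scripts ran in Python 3.11.15 with pandas 2.3.3 and numpy 2.4.6; intervals came from scipy 1.17.1 and plots from matplotlib 3.10.9.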

Additional observations from a re-analysis of the deposited data

Results flagged for a closer look

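At the Hoxa locus the difference in peak density between the span and its flanks had opposite signs in the tissues. Uterus had 31.0 peaks per Mb more inside the span than in the flanks, and liver had a difference of -4.00 per Mb, from 4 flank peaks and none inside. The liver value rests on a count of 0 in the 120 kb span, and 82.7% of windows of that width held no liver peak. Of the 849 windows of that width at least as rich in uterus peaks, 476 held no liver peak. With flanks of 250 kb liver had 0 peaks in the flanks as well, and its difference was gone. Each tissue had 1 library, and the contrast was not tested. Hoxd gave no such contrast, as liver had no peak there.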

How the results depend on the processing

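Of 140 values recomputed under an alternative, 97 stayed and 43 moved. Staying meant within 1.5 times a count or ratio, or within the interval of a density or median. Part of the 97 could not move, so this number overstates how stable the results were. That part includes liver values when only the uterus list was shortened, liver counts of 0 under stricter lists, and the 8 sharing counts of 0. Stricter lists shortened the counts. With only peaks of MACS score 200 or more, the Hoxa locus held 14 uterus peaks (12.5 per Mb), 1 of them in the low flank and 3 inside, and 1 liver peak (0.893 per Mb), in the low flank with 0 on the other side. Hoxd held 19 uterus peaks (17.1 per Mb), with 5 and 7 in the low and high flanks. At a fold enrichment of at least 10, Hoxa held 16 uterus peaks (14.3 per Mb), 3 in the low flank and 3 inside, and 2 liver peaks, 1 in the low flank. With the uterus list cut to the liver length by score, Hoxa held 7 uterus peaks (6.25 per Mb), 1 low, 1 inside and 5 high. Hoxd then held 12 (10.8 per Mb), 2 low, 4 inside and 6 high. A list of that length, 6932 peaks, has 2.71 per Mb, as the liver list does. The 9.72 per Mb of the full uterus list is no baseline for densities from stricter lists. Flanks of 250 kb left 15 uterus and 0 liver peaks at Hoxa, a liver density of 0 per Mb. Flanks of 1000 kb gave 47 and 8 at Hoxa, and 69 and 6 at Hoxd. Stricter lists and narrower flanks admit fewer peaks by construction, and wider flanks admit more. The group 13 side of the span then held 3, 3 and 1 of the Hoxa peaks under the same 3 list alternatives, and 4 of the Hoxd peaks in the shortened list; in those cases it held every inside Hoxa peak. The median rank of the uterus peaks depended on the measure: at the Hoxa locus it was percentile 28.8 by fold enrichment, 57.8 by tags and 72.3 by width, and inside Hoxa 63.7 by width. The cause was not tested. Sharing was 0 under all 4 alternatives, but none of them could have given another count. A reciprocal overlap of at least 50% and a score of 200 or more only narrow the 1 bp rule. The closest liver and uterus summits were 7.85 kb apart, beyond the reach of the settings of 200 bp and 1000 bp.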

Other observations

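Between 500 and 1000 kb from the spans the uterus list became denser still on the Hoxd1 side, with 34 peaks or 68.0 per Mb, 6 of them in the highest 10% of the list by fold enrichment. One of these, chr2:75185597-75187264, held 824 tags at 91.4-fold, 576 kb from the span. The same stretch held 6 liver peaks, and 2 pairs overlapped between the tissues. In one of them chr2:75541351-75542133 in liver and chr2:75541303-75542156 in uterus had summits 38 bp apart, and in the other the summits were 12 bp apart. The Hoxd13 side held 4 uterus peaks at these distances, among them chr2:73636687-73637229 at 101-fold with 138 tags, and no liver peak. On the Hoxa13 side there were 16 uterus peaks and 1 liver peak, and chr6:52961782-52962639 reached 125-fold with 487 tags, rank 28 of the uterus list by fold. On the low-coordinate side there were 6 uterus peaks and 3 liver peaks, none of them shared. These peaks were picked after their values were seen.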
